A study of Mus musculus with 6 samples.

Results

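Regulators of G-protein signalling, the RGS proteins encoded by Rgs1, Rgs2, Rgs10, Rgs14, Rgs16 and Rgs19, were followed in mouse CD4+CD25+ cells labelled as regulatory T cells (Treg), from mice whose genotype deletes the histone acetyltransferase p300 and from controls. Foxp3, the gene that defines Treg, was near background in the p300-deleted samples, so these samples are named by their genotype only. Terms such as p300-deleted, without p300 and after deletion stand for that genotype, and loss of p300 itself could not be checked. Members were chosen by symbol: every probe set whose platform annotation gives one of these symbols as its only symbol was taken. This gave 10 probe sets for 6 genes, of 22690 probe sets and 12393 genes on the array. Each gene is represented by its brightest probe set over all arrays, and all 6 genes were bright enough to be tested among 8675 genes.

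The p300-deleted group held 3 samples of genotype fl-p300/Foxp3cre, in which a Cre recombinase driven from Foxp3 acts on a floxed p300 allele. The control group held 3 samples that carry Foxp3cre without the floxed allele, so that Foxp3cre is common to both groups, and the titles call these controls WT. All mice were on the C57Bl/6 background, no age or treatment is given, and CD4+CD25+ cells were separated magnetically, 1 array per sample. Whether each sample came from its own mouse is not stated, although the labels describe them as independent, so p-values reflect only the spread among these 6 samples, some of which may be technical.

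RGS proteins switch off signals from G protein-coupled receptors. An activated receptor loads the alpha subunit of a heterotrimeric G protein with GTP, and the RGS domain speeds the hydrolysis of that GTP, which lets the trimer form again. In lymphocytes the receptors concerned include those for chemokines and sphingosine-1-phosphate, which guide migration through the Gi class, and Rgs1, Rgs2 and Rgs16 are known as genes that respond quickly to activation.

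The labelled cell type was checked against its markers. Of 12 listed T cell and Treg genes all were above the limit for dim genes (a log2 value of 3.91) in every control array and 11 in every p300-deleted array, among them Cd3e, a chain of the T cell receptor complex, with control and p300-deleted means of 11.38 ± 0.16 and 11.54 ± 0.08 (SD, n = 3 each). Foxp3, the lineage factor of Treg, was at 2.57, 3.04 and 3.15 after p300 deletion, near the bacterial control probe sets (medians per array of 2.18 to 2.34), and at 9.63, 9.35 and 9.39 in the controls. It was thus below the limit for dim genes in every p300-deleted array and fell by 6.53 (SE 0.16, adjusted p = 4.36e-07). The defining Treg gene goes against the label in that group. Of the other Treg genes, Il2ra, Ctla4, Tnfrsf18 and Ikzf2 had p300-deleted means of 9.14, 10.93, 11.02 and 5.26. Their control means were 8.89, 10.62, 11.18 and 4.66, and none of these differences passed. The label could not be checked further, because neither the structure of the Foxp3cre allele nor the position of the probe set was known here. Of the other 11 genes 1 passed, Izumo1r, a surface protein of T cells, which rose by 0.62 (adjusted p = 0.0459). Cd2 at 0.49 (adjusted p = 0.0511) and Cd4 at 0.68 (adjusted p = 0.0746) were higher without overlap but did not pass. Izumo1r, Cd2, Cd4 and Cd3g were higher with an unadjusted p below 0.05, and Foxp3 was lower. These are 4 and 1 of 12, against 8.21% and 9.89% of genes tested. The groups did not overlap for 8 of the 12, all higher except Foxp3, against 23.7%. Of the 12 differences 10 were above 0, against 45%. The annotation names no probe set for Ep300, so the deleted gene itself could not be checked. Its paralogue Crebbp differed by 0.04 (SE 0.12, adjusted p = 0.892). Array medians lay between 5.38 and 5.46, and correlations between arrays over all probe sets were 0.995 to 0.996 within p300-deleted arrays, 0.988 to 0.993 within controls and 0.986 to 0.993 between groups.

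The promoters of Rgs16, which rose, and of Rgs2, whose difference did not pass the test, are shown because p300 is recruited to promoters and enhancers by DNA-binding factors such as CREB and AP-1. RefSeq sequences of assembly GRCm38.p6 were matched by symbol for Rgs2, Rgs10, Rgs16 and Rgs19. Rgs1 and Rgs14 are named only. Each run covers the 250 bases before the annotated start, 5′ to 3′ on the gene's strand: Rgs16 at chr1:153740103-153740352 on the plus strand and Rgs2 at chr1:144004150-144004399 on the minus strand. Capitals mark CCAAT and GGGCGG on either strand.
Rgs16: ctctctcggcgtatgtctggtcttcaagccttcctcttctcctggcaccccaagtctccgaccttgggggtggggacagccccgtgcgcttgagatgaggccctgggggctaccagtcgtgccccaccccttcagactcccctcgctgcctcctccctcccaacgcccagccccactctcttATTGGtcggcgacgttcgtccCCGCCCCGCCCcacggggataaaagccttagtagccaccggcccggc
Rgs2: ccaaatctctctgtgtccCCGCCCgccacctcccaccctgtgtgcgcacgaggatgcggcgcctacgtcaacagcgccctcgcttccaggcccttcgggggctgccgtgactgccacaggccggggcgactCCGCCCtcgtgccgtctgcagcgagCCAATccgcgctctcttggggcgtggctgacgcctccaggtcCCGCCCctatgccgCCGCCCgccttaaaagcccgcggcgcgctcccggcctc

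Each of these windows held 1 CCAAT box, which 33.8% of 32851 windows of the same length hold. In Rgs16 it began 68 bases before the start and in Rgs2 94 bases before it. The GC box GGGCGG, present in 32.7% of all windows, occurred 2 times in Rgs16, where the matches overlap by 1 base, and 4 times in Rgs2. Rgs10 held 2 GC boxes, and the 3 windows of Rgs19 held 1, 2 and 0. Windows 1 and 2 of Rgs19 overlap, and the GC box of window 1 is also counted in window 2. The cyclic AMP response element TGACGTCA (1.55% of windows), the AP-1 site TGANTCA (6.75%) and the TATA box TATAAA (12.4%) were searched on both strands. These letters are not in the windows of the 4 genes. Only the full words were searched for, so parts or variants of them may be present. Matches of different words did not overlap.

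Rgs1 and Rgs16 were higher in the p300-deleted samples, by 0.60 and 0.57 on the log2 scale, and the remaining members did not pass the test. Of the 6 members 2 rose and 0 fell at an adjusted p under 0.05, where 1.72% of all genes tested were called, 0.991% higher and 0.726% lower. The groups did not overlap for these same 2 members, against 23.7% of all genes. At an unadjusted p under 0.05 there were 3 of 6, all higher, against 18.1% of all genes (8.21% higher and 9.89% lower). The differences of the 6 members ran from -0.22 to 0.60 on the log2 scale with a median of 0.27, where the median of all genes was -0.03 and 45% of genes lay above 0. All differences are p300-deleted minus control.

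**Figure D1:**
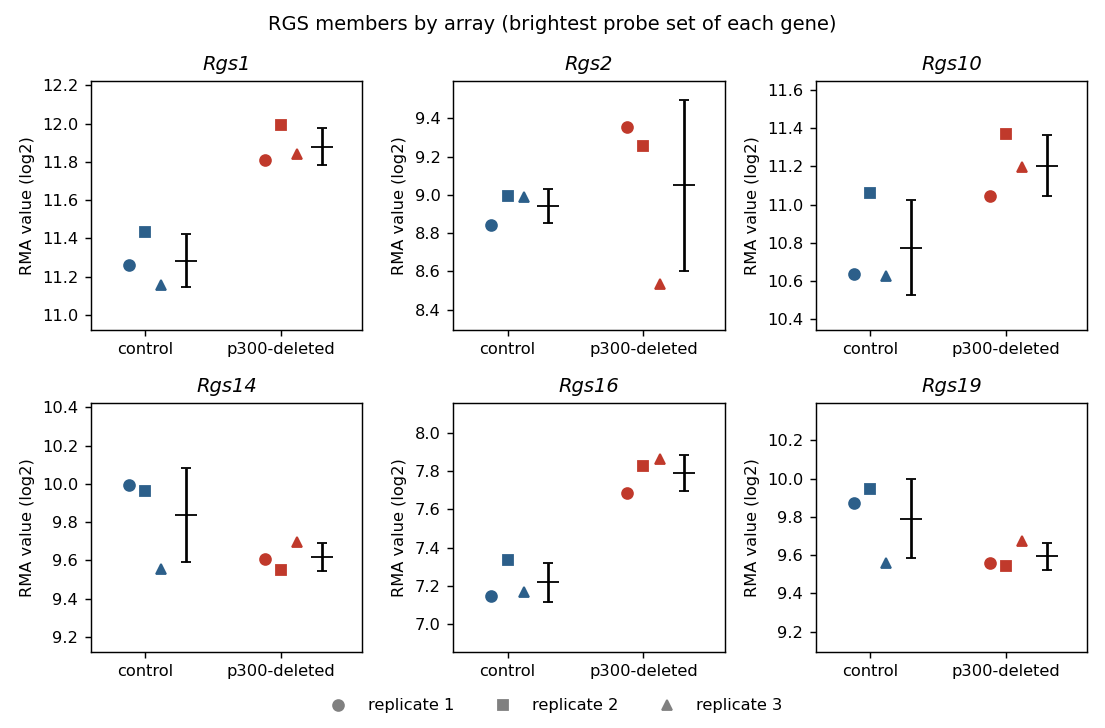
RMA values on the log2 scale of each member in the 3 control (blue) and 3 p300-deleted (red) arrays, with the mean and SD of each group as bars; every panel spans the same height but starts at its own level. Rgs1 and Rgs16 have no overlap between groups, while 1 p300-deleted array of Rgs2, 1 control array of Rgs10 and the third control array of Rgs14 and Rgs19 fall within or beyond the other group.

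Rgs1 dampens chemokine receptor signals in B and T lymphocytes. Control arrays had log2 values of 11.26, 11.43 and 11.15, and p300-deleted arrays 11.81, 11.99 and 11.84. Every p300-deleted array lay above every control, and the gap between the lowest of one group and the highest of the other was wider than the spread within either group. The means were 11.88 ± 0.10 (SD, n = 3) and 11.28 ± 0.14 (SD, n = 3), a rise of 0.60 (SE 0.11, 95% interval 0.34 to 0.86, adjusted p = 0.0459) or 1.51-fold.

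Rgs1 lay close to the threshold. It passed under 7 of 15 alternatives, with adjusted p from 0.00752 to 0.218 and differences from 0.53 to 0.67. The call was lost without p300-deleted 1, 2 or 3 (differences of 0.63, 0.54 and 0.62) and without control 1 or 3 (0.59 and 0.53). Its 1 probe set had an adjusted p of 0.0707 when all 22626 probe sets were tested.

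Rgs16 encodes a GTPase activator for Gi and Gq that restrains lymphocyte migration toward chemokines, and it is read by 3 probe sets. The brightest, 1455265_a_at, stood at 7.69, 7.83 and 7.86 in p300-deleted cells and at 7.15, 7.34 and 7.17 in controls. Again each p300-deleted array was above each control. Group means were 7.79 ± 0.09 (SD, n = 3) and 7.22 ± 0.10 (SD, n = 3), so that Rgs16 rose by 0.57 (SE 0.11, 95% interval 0.33 to 0.82, adjusted p = 0.0450), or 1.49-fold.

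A second probe set of Rgs16, 1426037_a_at, gave a larger difference. It read 7.86, 8.01 and 8.07 in the p300-deleted arrays against 6.98, 6.78 and 7.10 in the controls. The 2 groups were apart without overlap, and in the fit of all probe sets it rose by 1.03 (SE 0.12, adjusted p = 0.0142). The dimmest, 1451452_a_at, read 5.31, 5.59 and 5.91 against 4.36, 4.59 and 5.72. There the third control lay among the p300-deleted arrays, and the difference of 0.71 (SE 0.32, adjusted p = 0.366) did not pass. In that fit of all probe sets 1 of the 10 of the members was called, where 0.455% of all were called and 0.354% were called higher, and 3 of the 10 had no overlap between groups, against 19.5% of all. Over the mean of the 3 Rgs16 probe sets the difference was 0.77 (adjusted p = 0.0583).

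The call for the brightest Rgs16 probe set held under 6 of 15 alternatives, with adjusted p from 0.00697 to 0.208. It was lost without p300-deleted 1, 2 or 3 (0.62, 0.55 and 0.54) and without control 1 or 3 (0.54 and 0.55). Identifiers ending in _a_at mark probe sets that can bind several transcripts of a gene.

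**Figure D2:**
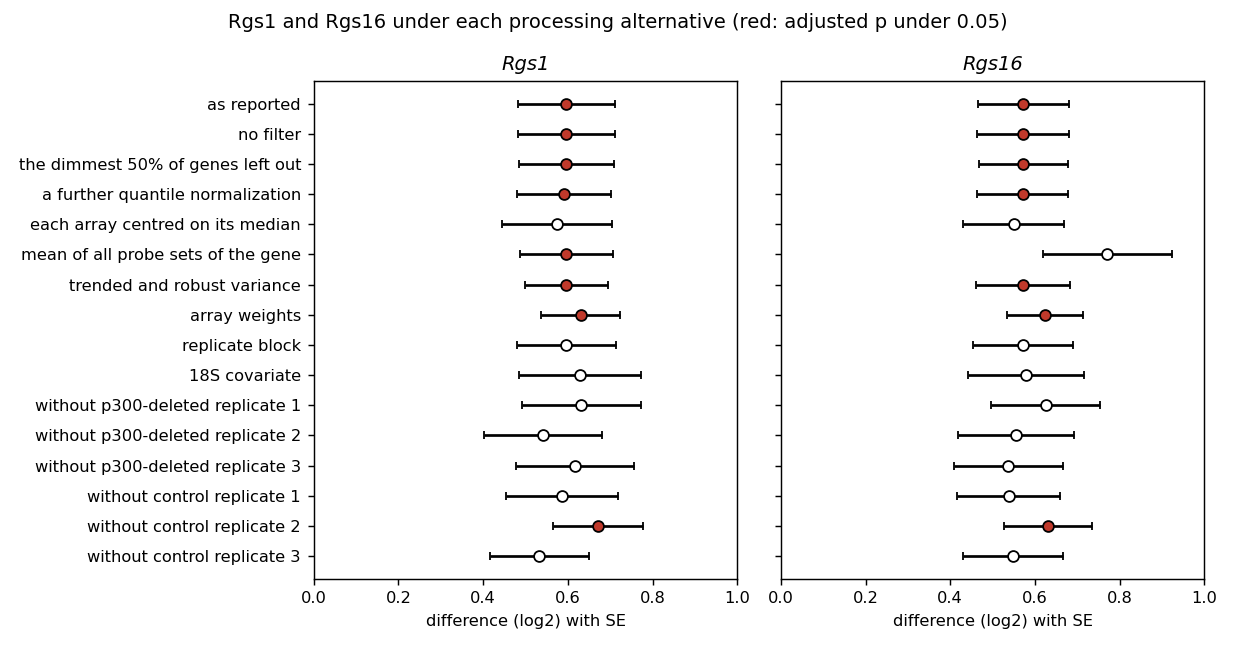
Differences of Rgs1 and Rgs16 on the log2 scale with their SE under each processing alternative, filled red where the adjusted p was under 0.05. All values lie between 0.53 and 0.67 for Rgs1 and between 0.54 and 0.77 for Rgs16, with 7 and 6 of 15 alternatives past the threshold.

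**Figure D3:**
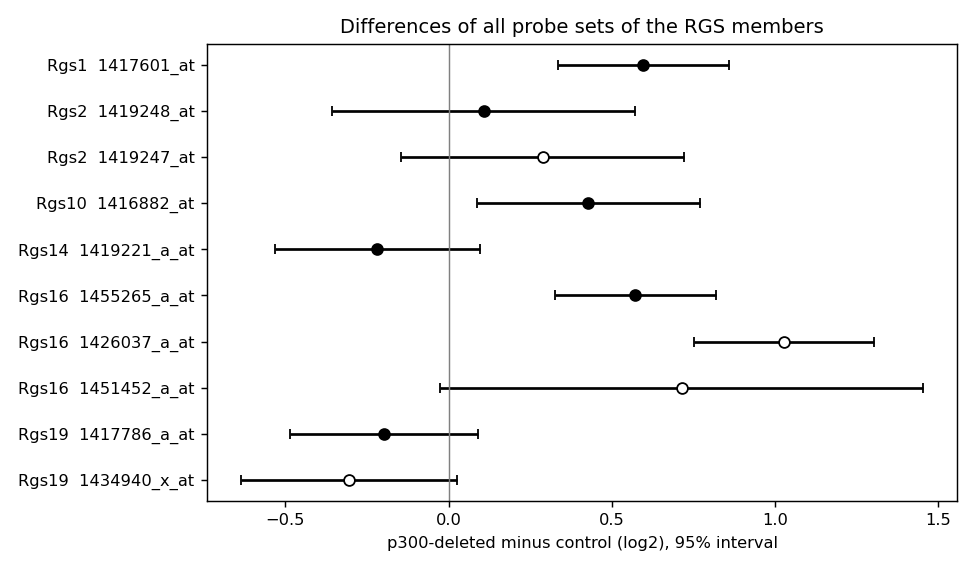
Difference between groups on the log2 scale for each of the 10 probe sets of the members, from the fit of all probe sets, with its unadjusted 95% interval; filled points are the probe sets that represent the gene. The 3 probe sets of Rgs16 all lie above 0, from 0.57 to 1.03, and the 2 of Rgs19 both lie below 0, at -0.20 and -0.30.

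Rgs2, a regulator with a preference for Gq, had the most uneven p300-deleted group. Its log2 values there were 9.36, 9.26 and 8.53, against 8.84, 8.996 and 8.99 in controls. Arrays 1 and 2 were above all controls and array 3 was below all of them, and the SD was 0.45 in p300-deleted cells against 0.09 in controls. The second probe set had the same shape, at 9.43, 9.28 and 8.65 against 8.77, 8.86 and 8.86.

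The difference of Rgs2 was 0.11 (SE 0.20, 95% interval -0.35 to 0.57, adjusted p = 0.830), within the spread between replicates, and that of the second probe set was 0.29. The third array decided the value: without p300-deleted 3 the difference was 0.37 (adjusted p = 0.228), without p300-deleted 1 it was -0.045 and without p300-deleted 2 it was 0.00354. Klf4, an immediate early gene chosen after its values were seen, was also low in that array, at 9.18, 9.15 and 8.52 in p300-deleted cells against 8.72, 8.44 and 8.65. Other immediate early genes were mixed there. Among the p300-deleted arrays, Egr1 (11.35, 11.25 and 10.93) and Junb (12.25, 12.13 and 11.88) were lowest in the third. Fos (12.67, 12.68 and 12.85) and Myc (8.22, 8.51 and 8.88) were highest in it.

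In the order of protein-coding genes of GRCm38.p6, Rgs2 and Rgs1 are separated only by Rgs13 and are followed by Rgs21 and Rgs18. Of this cluster Rgs1 rose and Rgs2 did not pass, Rgs18 was below the limit for dim genes and Rgs13 and Rgs21 are not analysed here. Uchl5, a deubiquitinase on the far side of Rgs2, was at 0.04 (adjusted p = 0.886). Rgs16 lies beside Rgs8, which was dim.

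Rgs10 encodes a small RGS protein that acts on Gi-class subunits and is abundant in leukocytes. Control arrays had log2 values of 10.64, 11.06 and 10.63, against 11.05, 11.37 and 11.19 after deletion. The groups overlapped narrowly, since control 2 reached the lowest p300-deleted array. The difference of 0.43 (SE 0.15, 95% interval 0.09 to 0.77, adjusted p = 0.188) did not pass. It was 0.57 without control 2 (adjusted p = 0.0729) and 0.55 with arrays weighted by their quality, the 1 alternative of 15 under which it passed (adjusted p = 0.0266).

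Rgs14 joins an RGS domain to Ras-binding domains and a GoLoco motif, which holds Gi alpha in its GDP form. It read 9.99, 9.96 and 9.55 in controls, against 9.61, 9.55 and 9.69 without p300. Controls 1 and 2 were above every p300-deleted array and control 3 was level with the lowest. The difference was -0.22 (SE 0.14, 95% interval -0.53 to 0.09, adjusted p = 0.451).

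Rgs19, also called GAIP, binds the PDZ protein encoded by Gipc1. Its log2 values were 9.87, 9.94 and 9.56 in controls, against 9.56, 9.54 and 9.67 without p300. As with Rgs14, control 3 stood among the p300-deleted arrays, away from the other controls. The difference was -0.20 (SE 0.13, 95% interval -0.49 to 0.09, adjusted p = 0.456), and the second probe set was at -0.30. Gipc1 was at -0.18 (adjusted p = 0.496).

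The values of both genes moved with the control left out. Without control 1, 2 or 3 Rgs14 was at -0.14, -0.16 and -0.36 (adjusted p = 0.707, 0.623 and 0.102). For Rgs19 these values were -0.16, -0.12 and -0.31 (adjusted p = 0.647, 0.648 and 0.140). Control 3 also had an 18S ribosomal RNA control value of 8.69, against 5.68 and 6.03 in the other controls while the p300-deleted arrays had 7.74, 9.47 and 7.91. Adjusted for the 18S value, the differences were -0.02 for Rgs14 (SE 0.12, adjusted p = 0.968) and -0.04 for Rgs19 (SE 0.13, adjusted p = 0.928). Every p300-deleted 18S value lay above those of controls 1 and 2, so the 18S value can only partly be told apart from the group. Its part in these differences, which did not pass without the adjustment either, was not tested.

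Most other RGS genes were dim. Of 15 further family members 11 were named on the array, 8 were below the limit for dim genes (a mean of 3.91 over all arrays) and 3 were tested, Rgs3, Rgs9 and Rgs11. In limma 0 of the 3 passed (0 at an unadjusted p under 0.05), with differences from -0.22 to 0.06. The 4 probe sets of Rgs3 went both ways, at 0.05, -0.15, 0.29 and -0.19. Rgs11 had control values of 5.91, 5.94 and 5.25 against 5.33, 5.54 and 5.57, with control 3 again the low one.

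Among genes of the wider pathway, single genes passed the test in either direction, where 0.991% of all genes tested rose and 0.726% fell. Of 8 tested G protein alpha subunits 1 fell and 0 rose, with a list median of -0.06. The gene was Gna15, an alpha subunit of blood cells that couples to many receptors. It read 6.81, 6.61 and 6.92 in controls against 6.13, 5.43 and 5.89 without p300, with no overlap, and fell by 0.96 (SE 0.18, adjusted p = 0.0445). It passed under 9 of 15 alternatives, and the call was lost without p300-deleted 2 or 3 (-0.77 and -0.999) without control 1, 2 or 3 (-0.95, -1.05 and -0.89) and with adjustment for the 18S value (-0.90). Gnai2 and Gnai3, the main Gi subunits of lymphocytes, are named for that role after their values were seen, and were at -0.21 (adjusted p = 0.334) and -0.09 (adjusted p = 0.735).

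Of 9 tested beta and gamma subunits 1 rose and 0 fell (median 0.06). Gnb5, the beta subunit that stabilizes RGS proteins such as Rgs6, Rgs7, Rgs9 and Rgs11, stood at 5.24, 5.38 and 5.11 in controls and at 5.84, 5.81 and 5.84 without p300. All p300-deleted arrays were higher, by 0.59 on average (SE 0.11, adjusted p = 0.0416). It passed under 6 of 14 alternatives and lost its call without p300-deleted 1, 2 or 3 (0.58, 0.60 and 0.58) or control 1 (0.59). The call was also lost with the replicate number as a block (0.59, adjusted p = 0.0798), a further quantile normalization (0.56, adjusted p = 0.0562), each array centred on its median (0.56, adjusted p = 0.0546) and adjustment for the 18S value (0.67, adjusted p = 0.102). Of those 4 RGS genes Rgs6 and Rgs7 were dim, and Rgs9 and Rgs11 were at 0.06 and -0.22.

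Of 6 other G alpha regulators and RGS partners 1 fell, 0 rose and the median was -0.20. Gpsm2 encodes LGN, a GoLoco protein that also orients the mitotic spindle. Controls were at 5.79, 5.75 and 6.33 and p300-deleted arrays at 5.02, 4.66 and 5.06, without overlap. It fell by 1.05 (SE 0.18, adjusted p = 0.0392), passed under 9 of 14 alternatives and lost its call without p300-deleted 1, 2 or 3 (-1.10, -0.92 and -1.12) or control 1 (-1.13) and with adjustment for the 18S value (-1.19).

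Of 18 effectors and second messenger genes 1 fell and 0 rose (median -0.02). Adcy6, an adenylyl cyclase that Gi inhibits, read 7.66, 7.49 and 7.58 in controls against 6.73, 6.64 and 6.66 without p300. The groups were far apart relative to their spread, and Adcy6 fell by 0.90 (SE 0.10, adjusted p = 0.0100). In the fit of all probe sets it passed as well (adjusted p = 0.0118). It passed under 12 of 15 alternatives, and the exceptions were the fits without p300-deleted 2 (-0.89, adjusted p = 0.0527), without control 1 (-0.86, adjusted p = 0.0835) and with adjustment for the 18S value (-0.88, adjusted p = 0.0747).

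Of 23 tested G protein-coupled receptors of lymphocytes 0 passed in limma, with a median of -0.10. At an unadjusted p under 0.05 there were 2 higher and 7 lower, against 8.21% and 9.89% of all genes tested. The smallest p-values were those of the cannabinoid receptor Cnr2 at -0.97 (adjusted p = 0.0662) and the prostaglandin E2 receptor Ptger2 at 0.67 (adjusted p = 0.0912). The 14 tested receptors for chemokines and sphingosine-1-phosphate, grouped after their values were seen, ran from -1.20 to 0.35 (median -0.10). Limma called 0 of them, and 3 were lower and 0 higher with an unadjusted p under 0.05, against 9.89% and 8.21% of all genes. The 3 were Ccr2 at -1.20 (adjusted p = 0.183), Cxcr6 at -0.66 (adjusted p = 0.270) and S1pr4 at -0.47 (adjusted p = 0.0912), of which S1pr4 had no overlap between groups. Cxcr4 had the highest value, and Ccr7 and S1pr1, which guide entry into and exit from lymph nodes, were at 0.06 (adjusted p = 0.871) and 0.02 (adjusted p = 0.967). Of 5 receptor kinases and arrestins 0 passed in limma (1 higher at an unadjusted p under 0.05), with a median of -0.01. Grk5 was at 0.49 (adjusted p = 0.198) and Grk6 at -0.21 (adjusted p = 0.422).

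**Figure D4:**
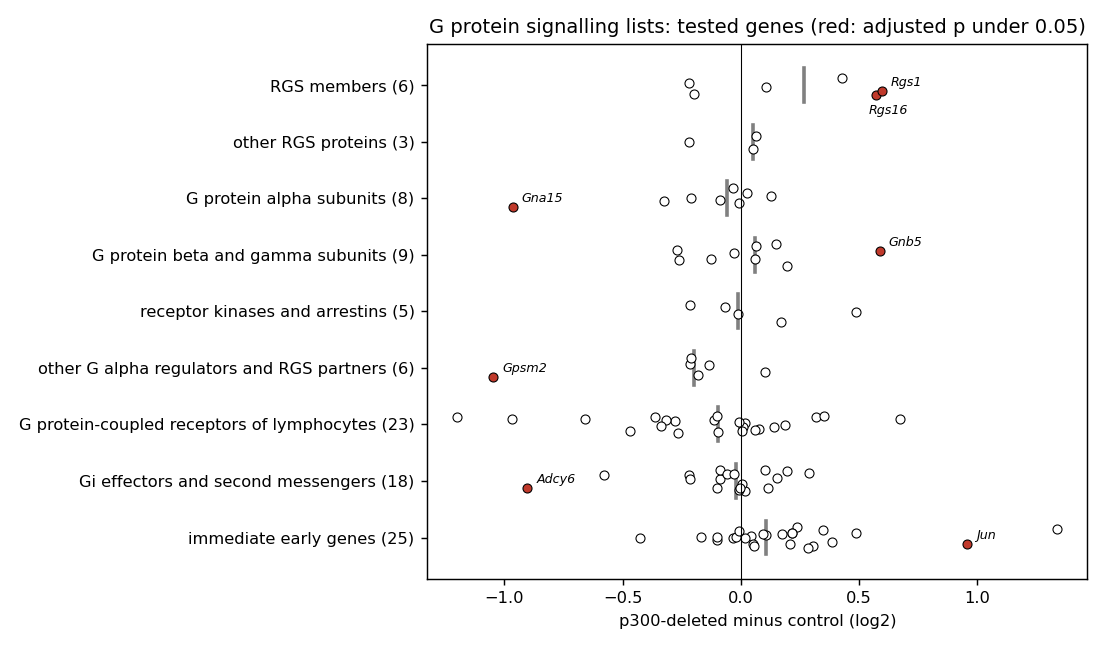
Difference between groups on the log2 scale for every tested gene of each list (number tested in brackets), with genes at an adjusted p under 0.05 in red and named, and the list median as a grey line; vertical scatter within a list has no meaning. Rgs1, Rgs16, Gnb5 and Jun lie to the right and Gna15, Gpsm2 and Adcy6 to the left, while list medians lie between -0.20 and 0.27.

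Immediate early genes, like Rgs1, Rgs2 and Rgs16, are known to respond quickly to activation. Of 25 tested, 1 rose, 0 fell and 18 had values above 0 (list median 0.11), where 45% of all genes lay above 0. At an unadjusted p under 0.05 there were 4 higher and 0 lower, against 8.21% and 9.89% of all genes. Btg2 had the largest difference, 1.34 (adjusted p = 0.0810), with no overlap between groups, and did not pass. Jun, a subunit of AP-1, read 11.10, 11.05 and 11.66 in controls against 12.23, 12.17 and 12.28 without p300. Every p300-deleted array was higher, and Jun rose by 0.95 (SE 0.16, adjusted p = 0.0390). In the fit of all probe sets this probe set did not pass (adjusted p = 0.0584), nor did the second, at 0.35 (adjusted p = 0.159). The call of Jun held under 9 of 15 alternatives. It was lost without p300-deleted 1, 2 or 3 (0.95, 0.98 and 0.93) or control 1 or 2 (0.87 and 0.84). It was also lost with adjustment for the 18S value (0.74).

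The 3 genes most like Rgs1 over the 6 arrays, by the root mean square difference of log2 values centred on each gene's mean, were Dlg3 (0.02), a scaffold protein of cell junctions, Trbv13-2 (0.05), a variable gene of the T cell receptor beta chain, and Eif3m (0.06), a translation initiation factor. They differed between groups by 0.58 (adjusted p = 0.0445), 0.54 (adjusted p = 0.0715) and 0.55 (adjusted p = 0.0741). For Rgs2 the nearest were Abcb10 (0.11), a mitochondrial transporter, Dnajb9 (0.11), a chaperone of the endoplasmic reticulum, and Fam241b (0.13), with adjusted p of 0.929, 0.665 and 0.911. Genes chosen in this way share the pattern of the member over the same 6 arrays by selection. Their differences and adjusted p are therefore no separate results.

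Markers of some other cell types moved with the groups. Over all genes tested 0.991% rose and 0.726% fell in limma, and 18.1% had an unadjusted p under 0.05. Plasma cell markers (7 of 8 on the array) had mean log2 levels of 8.46 to 8.996 without p300 and 7.66 to 7.76 in controls, and 5 of 7 tested rose. Mast cell and basophil markers (10 of 10, with Ms4a2 below the limit for dim genes) were at 5.43 to 6.07 against 4.61 to 4.81, and 6 of 9 tested rose. Myeloid markers (15 of 15, with Itgam and Cd14 below the limit) were at 6.05 to 7.14 against 5.31 to 5.86, with 0 of 13 tested past the threshold in limma (6 at an unadjusted p under 0.05). B cell markers (11 of 12, with Pax5, Cr2, Fcer2a and Ebf1 below the limit) overlapped, at 5.17 to 5.72 without p300 against 5.64 to 5.75, and 1 of 7 tested fell, Spib, a transcription factor of B cells, by 0.95 (adjusted p = 0.0368). NK and cytotoxic markers (9 of 10) also overlapped, at 7.44 to 8.10 against 7.54 to 7.70, and 1 of 9 tested rose, Gzma, a granzyme, by 0.73 (adjusted p = 0.0445). Both genes had no overlap between groups. In the lists of platelet (5 of 6, with Ppbp below the limit; 4.23 to 4.47 against 4.34 to 5.14) and erythroid markers (3 of 6, with Hba-a1 and Klf1 below the limit; 3.64 to 3.86 against 3.82 to 4.18) the groups overlapped, and limma called 0 genes (0 with an unadjusted p under 0.05). The 2 CD8 T cell markers were at 5.36 to 5.55 against 5.18 to 5.25, where limma called 0 of 2 (1 with an unadjusted p under 0.05).

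The plasma cell, mast cell and myeloid lists were above every control in all 3 p300-deleted arrays and highest in p300-deleted 1. Their part in the differences of Rgs1 and Rgs16 was not tested. For Gapdh the 3' control probe set exceeded the 5' one, a measure of RNA integrity, by 0.21 to 0.59 in controls. After deletion it did so by 0.06 to 0.14, with no overlap. For actin the same measure overlapped, at 0.30 to 0.46 in controls and 0.29 to 0.43 after deletion. The part of these measures in the results was not tested either. In sorted bulk samples, a change in the share of cells that express a gene and a change in its RNA per cell cannot be told apart.

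**Figure D5:**
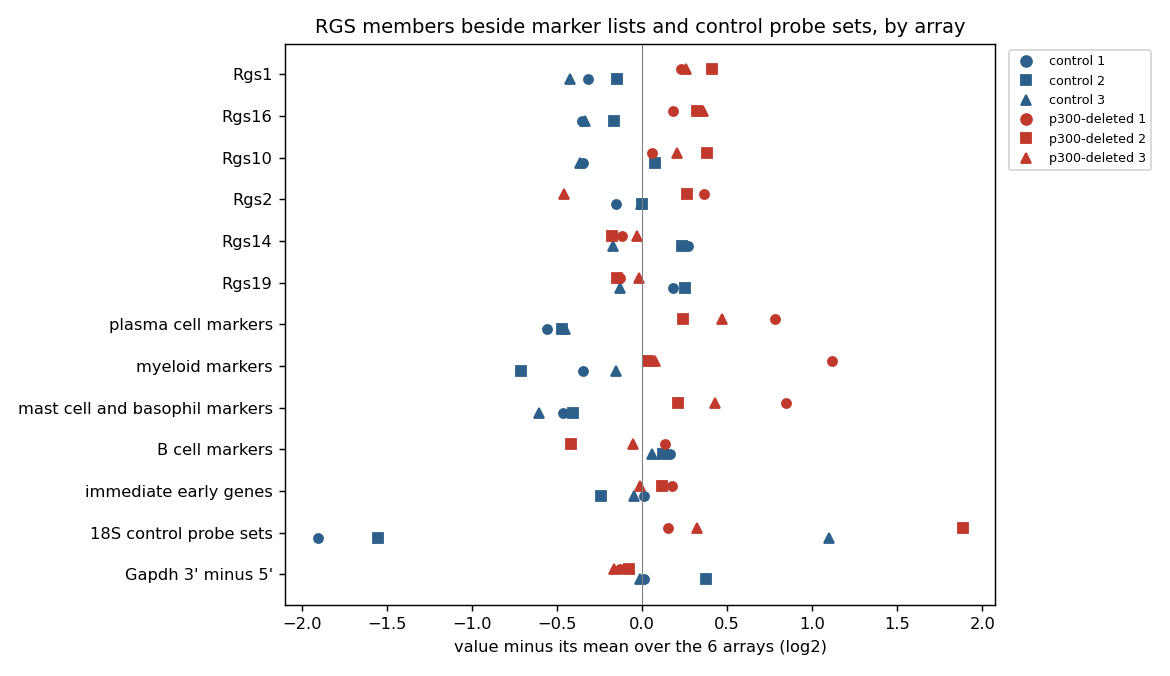
Each row gives the 6 arrays (blue control, red p300-deleted; circle, square and triangle for replicates 1, 2 and 3) as the log2 value minus its mean over the 6 arrays, for the members, the mean of each marker list and the control probe sets. Plasma cell, myeloid and mast cell markers are highest in p300-deleted 1 and above every control in p300-deleted 2 and 3; control 3 lies near the p300-deleted arrays for Rgs14, Rgs19 and the 18S control probe sets.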

How the data were processed

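RNA of 3 p300-deleted and 3 control samples, labelled Treg, was measured on 1 array each. Values were deposited on the log2 scale, 1 per probe set, and come from RMA according to the submitters' processing notes, with no version stated. Because RMA corrects background and quantile-normalizes the arrays before summarising probes, it hides shifts in total RNA and shrinks differences of dim probe sets. The number of arrays limits the precision.

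Of 22690 probe sets 64 are controls, 20380 had 1 symbol, 691 several and 1555 none. The symbols of 6 members were matched by gene ID to RefSeq. The brightest probe set stood for each of 12393 genes, and the dimmest 30% (3718 genes) were left out. The groups' difference was fitted in R 4.3.3 by limma 3.58.1 (lmFit, eBayes; two-sided), with Benjamini-Hochberg adjustment over 8675 genes and calls at an adjusted p under 0.05. All 22626 probe sets that are not controls were fitted apart. The fit was tested on simulated data.

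All members and the other RGS genes with an unadjusted p under 0.05 were named. From each pathway list up to 4 genes past the threshold were named, or 2 with the smallest p. Foxp3, Crebbp and the 3 genes most like each of the 2 members of widest range were always named. Other names were chosen after their values were seen. The members, lists and alternatives were chosen with earlier results of these data known, and the alternatives for genes that are no members were added after the data were seen. List levels are means of log2 values over the members on the array.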

Additional observations from a re-analysis of the deposited data

How the results depend on the processing

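Directions were stable for 5 of the 6 members under all 15 alternatives each, and Rgs2 turned to -0.045 without p300-deleted 1, in a range of -0.045 to 0.37 over the fits with 1 array left out. Leaving out an array gave 0.53 to 0.67 for Rgs1, 0.54 to 0.63 for Rgs16, 0.35 to 0.57 for Rgs10, -0.36 to -0.14 for Rgs14 and -0.31 to -0.12 for Rgs19, and 9 to 230 changed genes against 149, with fewer samples in each fit. The calls of Rgs1 and Rgs16 were lost, at 0.57 and 0.55, with each array centred on its median, at 0.63 and 0.58 with the 18S covariate and, for Rgs16, at 0.77 with the mean of all probe sets, and Rgs10 passed at 0.55 with array weights; the cause was not tested. Changed genes numbered 95 with the mean of all probe sets, 1019 with array weights, 15 with the 18S covariate and 399 at an adjusted p under 0.1. Same-numbered arrays did not deviate together (correlations of -0.07, 0.12 and -0.12), so the numbers are not taken to pair samples; with the replicate block 98 genes and 65 probe sets (against 103) changed, and Rgs1 at 0.60 (adjusted p = 0.0707) and Rgs16 at 0.57 (adjusted p = 0.0789) did not pass. Gnb5 lost its call there too (0.59, adjusted p = 0.0798), and no other call of a member or of Gna15, Gpsm2, Adcy6 and Jun changed under the block. Gnb5, Gpsm2, Grk5 and Cnr2 have no value with the dimmest 50% of genes left out.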
